A study of Mus musculus with 9 samples.

Results

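The 9 genes described here, Glul, Asns, Ppat, Pfas, Gmps, Cad, Ctps, Gfpt1 and Nadsyn1, encode enzymes that make or use glutamine, and were taken by gene name from a table of 28998 genes. All 9 were found once in the table, and all 9 passed the filter on low values, a mean of at least 1 FPKM (fragments scaled to transcript length and sequencing depth) over the libraries. RNA was sequenced from wild-type mouse macrophages, grown for 7 days from bone marrow monocytes of C57 mice with GM-CSF, a growth factor that drives their differentiation. There were 3 groups of 3 libraries each: cells given WGFT17, a compound known here only by its code name, for 36 h; cells given JHU083, a prodrug of the glutamine antagonist DON, for 36 h; and Control cells. The labels give no dose for either compound, and for Control neither a vehicle nor a culture time. Whether replicates came from separate cultures or mice is not stated, so every p-value here reflects library-to-library spread, which may be technical.

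Glutamine carries an amide nitrogen that cells hand on to nucleotides, amino sugars, asparagine and NAD. The enzymes that take this nitrogen are called glutamine amidotransferases, and DON blocks them by binding the cysteine at which glutamine is split. Glul, glutamine synthetase, runs the other way and makes glutamine from glutamate and ammonia. Ppat, Pfas and Gmps act in purine synthesis, Cad and Ctps in pyrimidine synthesis, Asns makes asparagine, Gfpt1 opens the hexosamine pathway that feeds protein glycosylation, and Nadsyn1 makes NAD. Asns is also a classic target of the transcription factor ATF4, which is switched on when amino acids run short.

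Among the 9 genes, Asns was the 1 that changed in all 3 comparisons. Its transcript was 1.43-fold higher in WGFT17 cells than in Control, 1.33-fold lower in JHU083 cells than in Control, and 1.91-fold higher in WGFT17 than in JHU083 cells. Ctps and Glul fell in WGFT17 cells, and Cad fell in JHU083 cells. Ppat, Pfas, Gmps, Gfpt1 and Nadsyn1 passed in none of the comparisons. Calls are from edgeR's quasi-likelihood test over 11798 genes, at a Benjamini-Hochberg adjusted p under 0.05. Over both directions, the counts for the 9 were near or below the background. In WGFT17 against Control 3 of 9 were called, where 58.0% of all tested genes were; 1 was higher (28.0% of all) and 2 were lower (30.0% of all). In JHU083 against Control 2 of 9 were called, both lower, where 24.0% of all genes were called and 12.5% were lower. In WGFT17 against JHU083 3 of 9 were called, where 44.7% of all were; 1 was higher (20.4% of all) and 2 were lower (24.4% of all). By FPKM, the libraries of WGFT17 and Control did not overlap for 4 of the 9 (73.2% of all tested genes), those of JHU083 and Control for 3 (43.7% of all), and those of WGFT17 and JHU083 for 3 (53.4% of all). The scaled counts of the fit gave other members. There Gfpt1 overlapped in WGFT17 and Control, and Gmps in JHU083 and Control. Cad and Gmps did not overlap in WGFT17 and Control, nor did Gmps in WGFT17 and JHU083. The share of all genes on that scale is not given here. The median absolute log2 change of the 9 was 0.14 in WGFT17 against Control, 0.08 in JHU083 against Control and 0.15 in WGFT17 against JHU083, beside medians over all tested genes of 0.30 in WGFT17 against Control, 0.16 in JHU083 against Control and 0.23 in WGFT17 against JHU083.

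Of the 8 genes with a promoter window in RefSeq (GRCm38.p6; Pfas had none), Asns alone held the letters TGATGNAA, the core of the amino acid response element to which ATF4 is known to bind. Windows ran from 250 bases before to 50 after the annotated start and were searched on both strands. The match in Asns lay at positions -23 to -16 from the RefSeq start, and the letters GTTACA, which form the second known element of the human ASNS promoter, lay at -3 to 3. The 2 motifs do not overlap each other. The GENCODE gene begins farther upstream, so both lie inside the gene there. Of all 27025 genes with windows, 4.51% held TGATGNAA, 9.49% GTTACA and 0.81% both; of the 32851 windows, the shares were 3.97%, 8.25% and 0.69%. The E-box CACGTG was in none of the 8 genes' windows, against 8.09% of all genes and 7.15% of windows. In the list of 17 ATF4 response genes described below, 5 of the 15 genes with windows held TGATGNAA. The Asns stretch is shown beside those of the 4 with the match before the start, because their transcripts are set beside that of Asns below. Capitals mark the matches, and TTGCATCA is the motif read on the other strand. A match of letters does not show that a factor binds there.
Asns, chr6:7693207-7693236, minus strand: cacaTGATGAAActtcccgcacgcGTTACA
Chac1, chr2:119351038-119351067, plus strand: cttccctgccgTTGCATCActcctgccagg
Atf3, chr1:191183425-191183454, minus strand: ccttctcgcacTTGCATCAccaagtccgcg
Nupr1, chr7:126625562-126625591, minus strand: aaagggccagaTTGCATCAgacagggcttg
Vldlr, chr19:27216809-27216838, plus strand: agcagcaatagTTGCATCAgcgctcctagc

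The libraries had deposited estimated counts of 56624220 to 69112134, and 21556 to 22424 genes above 0. All 10 macrophage markers checked were above 0 in every library, and their summed depth-scaled counts (CPM) came to 17717 to 19689 in WGFT17, 18663 to 19924 in JHU083 and 17690 to 19068 in Control. Transcripts of other cells and tissues differed between groups. The sums over 9 stromal genes were 2274 to 2385 CPM in WGFT17 (0 or 1 gene at 0), 8221 to 9446 in JHU083 (0 at 0) and 12512 to 13333 in Control (0 at 0). Those over 9 neutrophil genes were 1.04 to 1.78 CPM in WGFT17 (4 or 5 at 0), 11.9 to 14.3 in JHU083 (0 or 1 at 0) and 46.2 to 53.4 in Control (1 at 0). Those over 7 dendritic cell genes were 115 to 134 CPM in WGFT17 (1 at 0), 368 to 405 in JHU083 (0 or 1 at 0) and 368 to 532 in Control (0 or 1 at 0). The stromal and neutrophil sums were thus lowest in WGFT17 and highest in Control, without overlap. Liver transcripts (10 genes, none at 0) summed to 778 to 1169 CPM in WGFT17, 1268 to 1664 in JHU083 and 2295 to 2489 in Control. Photoreceptor transcripts (10 genes) summed to 0.768 to 1.16 CPM in WGFT17 (5 to 7 at 0), to 1.21, 0.742 and 36.7 in JHU083 replicates 1, 2 and 3 (1 to 7 at 0) and to 32.0 to 41.4 in Control (1 or 2 at 0). Heart muscle transcripts (10 genes) summed to 0.289 to 0.437 CPM in WGFT17 (6 to 8 at 0), to 183, 0.510 and 312 in the same JHU083 replicates (0 to 7 at 0) and to 245 to 292 in Control (1 at 0). JHU083 replicate 3 was like Control in the photoreceptor and heart sums, and replicate 1 held heart transcripts as well. Where leaving out replicate 3 changed a call among the 9 genes, this is stated below. In bulk RNA, fewer cells of a type and less RNA per cell cannot be told apart. The part of other cells in the results below was not tested.

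Glul, at chromosome 1, 153899944 to 153909723 (GRCm38 coordinates, ENSMUSG00000026473), was the most abundant of the 9 on the FPKM scale. Its level was 64.8, 64.3 and 61.4 FPKM in WGFT17 replicates 1 to 3, against 71.1, 72.4 and 78.5 FPKM in Control. In JHU083 it was 93.1, 93.9 and 74.1 FPKM. All WGFT17 libraries lay below all Control and JHU083 libraries; JHU083 replicates 1 and 2 lay above Control and replicate 3 within it. The log2 change of WGFT17 against Control was -0.33 (SE 0.08, adjusted p = 0.00552), 1.26-fold lower. The call ended in 3 of 20 alternatives: in limma on log2(FPKM + 1), where the log2 change was -0.22 (adjusted p = 0.0541), in limma on log2(FPKM + 0.1) (-0.22, adjusted p = 0.0543), and with each library's trends on transcript length and GC content removed (-0.18, adjusted p = 0.061). In those 3 settings the median of all tested genes moved to 0.10, 0.11 and 0.16, and Glul lay at -0.31, -0.33 and -0.33 relative to it. Against JHU083 cells, WGFT17 cells had 1.38-fold less Glul (log2 change -0.47, SE 0.08, adjusted p = 0.000775). In JHU083 against Control the log2 change was 0.14, with a 95% interval of -0.04 to 0.32 (adjusted p = 0.246). Without JHU083 replicate 3 it was 0.24 and passed (adjusted p = 0.00753), so this library decides the call. The 5' end of Glul overlaps 285 bases of Teddm2 on the other strand, and whether the counting used strand is not given in the sources used here.

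**Figure D1:**
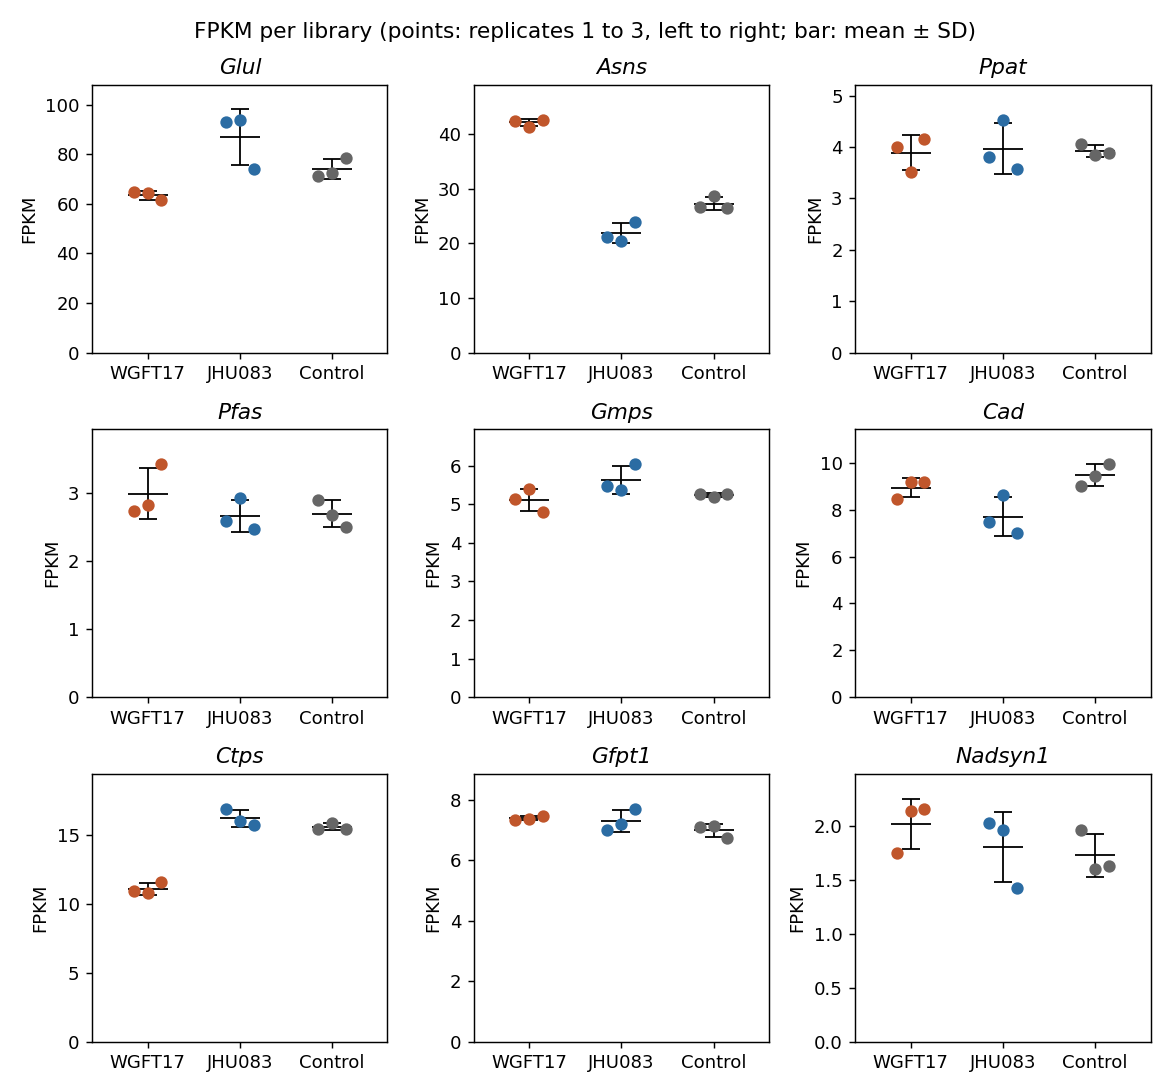
FPKM (vertical axes, from 0) of the 9 genes in each library; points are replicates 1 to 3 of WGFT17, JHU083 and Control, and bars the mean ± SD. Asns is highest in all 3 WGFT17 libraries (41.3 to 42.6 FPKM), Ctps lowest there (10.7 to 11.6 FPKM), and Glul in JHU083 replicate 3 (74.1 FPKM) sits within the Control range.

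Asns, asparagine synthetase (chromosome 6, 7675169 to 7693254, ENSMUSG00000029752), transfers the nitrogen of glutamine to aspartate. It had 42.4, 41.3 and 42.6 FPKM in WGFT17, against 26.6, 28.6 and 26.5 FPKM in Control. JHU083 libraries had 21.2, 20.4 and 23.8 FPKM. The 3 groups did not overlap: all WGFT17 libraries were above and all JHU083 libraries below Control. The log2 change was 0.52 in WGFT17 against Control (SE 0.06, adjusted p = 3.27e-05) and -0.41 in JHU083 against Control (SE 0.06, adjusted p = 0.0018). The direct comparison of WGFT17 with JHU083 gave 0.93 (95% interval 0.79 to 1.07, adjusted p = 3.36e-07). All 3 calls held in every alternative in which they were tested. In JHU083 the fall was smaller in replicate 3, which lay 0.21 above the mean of replicates 1 and 2 on the log2 CPM scale. The 2 comparisons with Control share the Control libraries.

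Because Glul makes glutamine and Asns uses it, their levels were also set against each other within each library. Glul exceeded Asns 1.51 ± 0.06-fold in WGFT17, 4.04 ± 0.81-fold in JHU083 and 2.72 ± 0.22-fold in Control (ratio of FPKM, mean ± SD, n = 3 each). The single ratios were 1.53, 1.56 and 1.44 in WGFT17, 4.39, 4.61 and 3.11 in JHU083, and 2.67, 2.53 and 2.97 in Control. The groups did not overlap in this ratio, though JHU083 replicate 3 lay close to Control. Glul held 43.2 ± 1.2% of the summed FPKM of the 9 genes in WGFT17, 56.3 ± 3.5% in JHU083 and 50.4 ± 1.6% in Control. The sum itself was 147.0 ± 0.51 FPKM in WGFT17, 154 ± 10.6 in JHU083 and 147 ± 3.5 in Control, so the FPKM total of the 9 overlapped between groups while its make-up differed. On log2(FPKM + 1) the median change of all tested genes was 0.10 in WGFT17 and 0.08 in JHU083 against Control. The sums were not scaled for that shift. These ratios and shares were not tested.

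Ppat, Pfas and Gmps, the 3 amidotransferases of purine synthesis, showed no call in any comparison. Ppat, which catalyses the committed step of the pathway (chromosome 5, 76913249 to 76951578, ENSMUSG00000029246), had 4.00, 3.52 and 4.16 FPKM in WGFT17, 3.81, 4.53 and 3.57 in JHU083, and 4.06, 3.84 and 3.89 in Control. The groups overlapped, with log2 changes of -0.12 in WGFT17 against Control (95% interval -0.35 to 0.10) and -0.08 in JHU083 against Control (-0.30 to 0.15). Pfas, which acts later in the pathway (chromosome 11, 68985697 to 69008460, ENSMUSG00000020899), had 2.73, 2.82 and 3.42 FPKM in WGFT17, 2.59, 2.93 and 2.47 in JHU083, and 2.90, 2.68 and 2.50 in Control. These groups also overlapped, and the log2 changes were 0.04 (-0.18 to 0.27) in WGFT17 and -0.11 (-0.34 to 0.12) in JHU083 against Control. Between the compounds, WGFT17 against JHU083, the interval was -0.27 to 0.18 for Ppat and -0.08 to 0.38 for Pfas. With each library's trends on transcript length and GC content removed, Pfas had 0.35 in WGFT17 against JHU083 and passed (adjusted p = 0.00632), where the median of all genes had moved to 0.14. A missed threshold here does not show that the levels were equal: each interval gives the sizes still allowed.

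Gmps, GMP synthetase (chromosome 3, 63976106 to 64022579, ENSMUSG00000027823), makes the guanine nucleotide GMP from XMP. It had 5.13, 5.38 and 4.80 FPKM in WGFT17, 5.47, 5.36 and 6.03 in JHU083, and 5.26, 5.18 and 5.26 in Control. On the FPKM scale the JHU083 libraries all lay above Control, but the fit of the counts gave a log2 change of 0.01 (95% interval -0.14 to 0.16, adjusted p = 0.935). In limma on log2(FPKM + 1) Gmps had 0.09 in this comparison, where the median of all genes had moved to 0.08. With trends on length and GC content removed, the value was -0.27 and passed (adjusted p = 0.0195), so its direction depended on the processing. In WGFT17 against Control the log2 change was -0.14 (-0.29 to 0.00, adjusted p = 0.0889). It passed when only these 2 groups were fitted (adjusted p = 0.0429), without JHU083 replicate 3 (adjusted p = 0.0351) and with the trends removed, where it was -0.34 (adjusted p = 0.000974). In WGFT17 against JHU083 it was -0.15 (-0.30 to -0.00, adjusted p = 0.0888).

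The gene of Paics, a purine enzyme that acts between Ppat and Gmps in the pathway, overlaps the 5' end of Ppat by 272 bases on the opposite strand (the genes lie head to head). Paics was far more abundant, with 32.5 ± 1.33 FPKM in WGFT17, 38.4 ± 1.61 in JHU083 and 36.8 ± 0.55 in Control (SD, n = 3 each). It fell in WGFT17 against Control (log2 change -0.29, adjusted p = 0.000623), a call that ended with length and GC trends removed (-0.09, adjusted p = 0.0889), and did not pass in JHU083 against Control (-0.03, adjusted p = 0.67). The difference between the changes of Paics and Ppat was not tested. An antisense transcript, 2310040G07Rik, also lies across 19391 bases of Ppat.

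Cad and Ctps stand at the start and the end of pyrimidine synthesis and did not follow the same pattern. Cad, whose single protein carries the first 3 activities of the pathway (chromosome 5, 31054780 to 31078479, ENSMUSG00000013629), had 8.48, 9.18 and 9.19 FPKM in WGFT17, against 9.00, 9.46 and 9.94 FPKM in Control. In JHU083 it had 7.47, 8.63 and 7.00 FPKM. By FPKM, all JHU083 libraries lay below all Control libraries, while WGFT17 overlapped Control. On the TMM-scaled CPM of the fit, WGFT17 libraries also lay below Control. They had 74.4, 80.9 and 80.3 CPM, against 85.2, 88.8 and 94.9 CPM in Control. Cad fell in JHU083 against Control, with a log2 change of -0.39 (SE 0.08, adjusted p = 0.00574), 1.31-fold lower, and this call held in all 20 alternatives tested. In WGFT17 against Control the log2 change was -0.19 (SE 0.08), just outside the threshold (adjusted p = 0.0522). The same direction passed in 8 of 20 alternatives, among them DESeq2 (adjusted p = 0.0345) and the fit without JHU083 replicate 3. The direct difference, WGFT17 against JHU083, was 0.20 (95% interval 0.03 to 0.37, adjusted p = 0.0515) and passed in 6 of 21 alternatives, so a difference between the compounds was not settled for Cad.

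Ctps, CTP synthetase, makes CTP from UTP (chromosome 4, 120539868 to 120570276, ENSMUSG00000028633). Its level was 10.9, 10.7 and 11.6 FPKM in WGFT17, against 15.4, 15.9 and 15.4 FPKM in Control. In JHU083 it was 16.9, 16.0 and 15.7 FPKM. WGFT17 libraries lay below all 6 others, and JHU083 overlapped Control. Ctps fell 1.52-fold in WGFT17 against Control (log2 change -0.60, SE 0.05, adjusted p = 2.81e-06) and was 1.48-fold lower than in JHU083 (-0.56, SE 0.05, adjusted p = 6.11e-06). Both calls held in every alternative. JHU083 against Control gave -0.04 (95% interval -0.16 to 0.08, adjusted p = 0.635). Its paralog Ctps2, named here after its values were seen, rose in WGFT17 against Control (log2 change 0.26, adjusted p = 0.0025). JHU083 against Control gave Ctps2 a log2 change of 0.06 (adjusted p = 0.445).

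Gfpt1, which makes glucosamine 6-phosphate (chromosome 6, 87042846 to 87092197, ENSMUSG00000029992), varied least of the 9. It had 7.35, 7.37 and 7.48 FPKM in WGFT17, 7.00, 7.20 and 7.71 in JHU083, and 7.11, 7.14 and 6.76 in Control. The FPKM of all WGFT17 libraries lay above Control, but the log2 change of the count fit was -0.03 (95% interval -0.14 to 0.08). In limma on log2(FPKM + 1) it was 0.07, where the median of all genes had moved to 0.10. JHU083 against Control gave -0.03 (-0.15 to 0.08), and WGFT17 against JHU083 0.00 (-0.11 to 0.12). With length and GC trends removed, JHU083 against Control was -0.16 and passed (adjusted p = 0.0126), and WGFT17 against JHU083 passed at 0.16 (adjusted p = 0.00337), where the median of all genes had moved to 0.14. Nadsyn1, NAD synthetase (chromosome 7, 143795584 to 143822849, ENSMUSG00000031090), was the least abundant, with 1.75, 2.14 and 2.16 FPKM in WGFT17, 2.03, 1.96 and 1.43 in JHU083, and 1.96, 1.60 and 1.63 in Control. Its groups overlapped, and its intervals were the widest of the 9, -0.25 to 0.46 in WGFT17 and -0.39 to 0.32 in JHU083 against Control. With the trends removed, Nadsyn1 had 0.39 in WGFT17 against Control and passed (adjusted p = 0.0386), where the median of all genes had moved to 0.16.

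**Figure D2:**
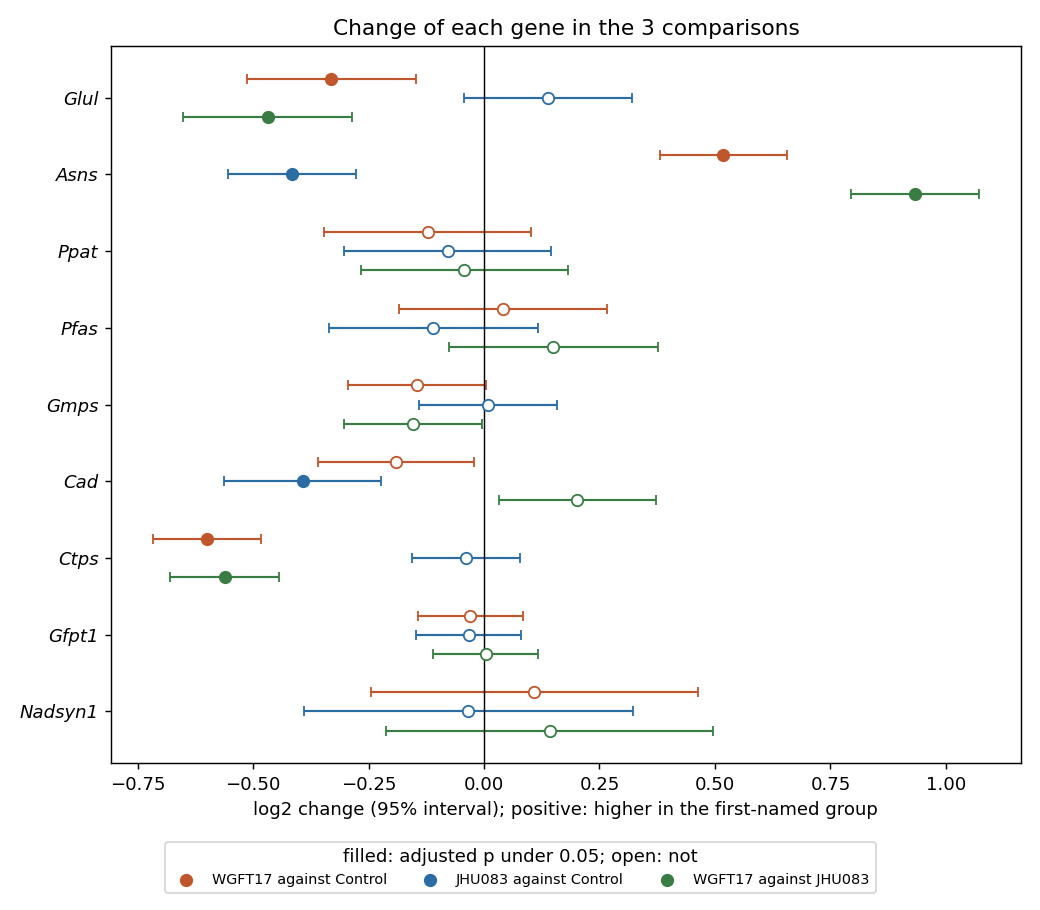
Log2 change of each gene (horizontal axis) in WGFT17 against Control, JHU083 against Control and WGFT17 against JHU083, with 95% intervals from the edgeR fit; filled points passed an adjusted p of 0.05. Asns lies at 0.52 in WGFT17 and -0.41 in JHU083 against Control, on opposite sides of 0, while the Ctps change of -0.60 belongs to WGFT17 and all intervals of Ppat, Pfas, Gfpt1 and Nadsyn1 cross 0.

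The order of the 9 by mean FPKM was the same in all 3 groups: Glul, Asns, Ctps, Cad, Gfpt1, Gmps, Ppat, Pfas and Nadsyn1. Neighbours in this order did not overlap within a group, except Cad and Gfpt1 in JHU083, where Cad had fallen to 7.70 ± 0.84 FPKM and Gfpt1 had 7.30 ± 0.37. Distances within the order did change: Asns exceeded Ctps 3.80 ± 0.11-fold in WGFT17, 1.35 ± 0.14-fold in JHU083 and 1.75 ± 0.05-fold in Control (FPKM ratio, n = 3 each). Glul exceeded Nadsyn1 31.8 ± 4.6-fold in WGFT17, 48.5 ± 3.1-fold in JHU083 and 43.2 ± 6.2-fold in Control.

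In the spread of log2 CPM over the 9 libraries, Asns varied most (root mean square deviation from its mean 0.39), followed by Ctps (0.28), Glul (0.22), Cad (0.18) and Nadsyn1 (0.18), and Gfpt1 least (0.04). Within groups, JHU083 was the most variable for Glul, with an SD of 0.05 in WGFT17, 0.19 in JHU083 and 0.09 in Control. For Asns the SD was 0.02 in WGFT17, 0.12 in JHU083 and 0.05 in Control. Over all tested genes the median SD was 0.08 in WGFT17, 0.13 in JHU083 and 0.08 in Control. JHU083 replicate 3 differed from the mean of replicates 1 and 2 by -0.45 for Nadsyn1, -0.32 for Glul, -0.20 for Ppat, -0.19 for Cad, 0.21 for Asns and 0.17 for Gmps on the log2 CPM scale.

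The genes with the most similar pattern were found by the root mean squared difference of centred log2 CPM over the 9 libraries. Nearest to Asns was Atf5, an ATF-family transcription factor, at 0.06, followed by Krtcap2 at 0.07, with 3 of 11797 genes within 0.1. Nearest to Ctps were Mprip (0.03) and Sptbn1 (0.03), with 153 genes within 0.1. Glul was nearest to Anapc2 and Evl (0.05 each), and Cad to Lrrc59 (0.06) and Eno1 (0.07). Among the 9 themselves, the closest pair was Gfpt1 and Gmps (0.09), both nearly flat, and Glul and Ctps differed by 0.15.

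**Figure D3:**
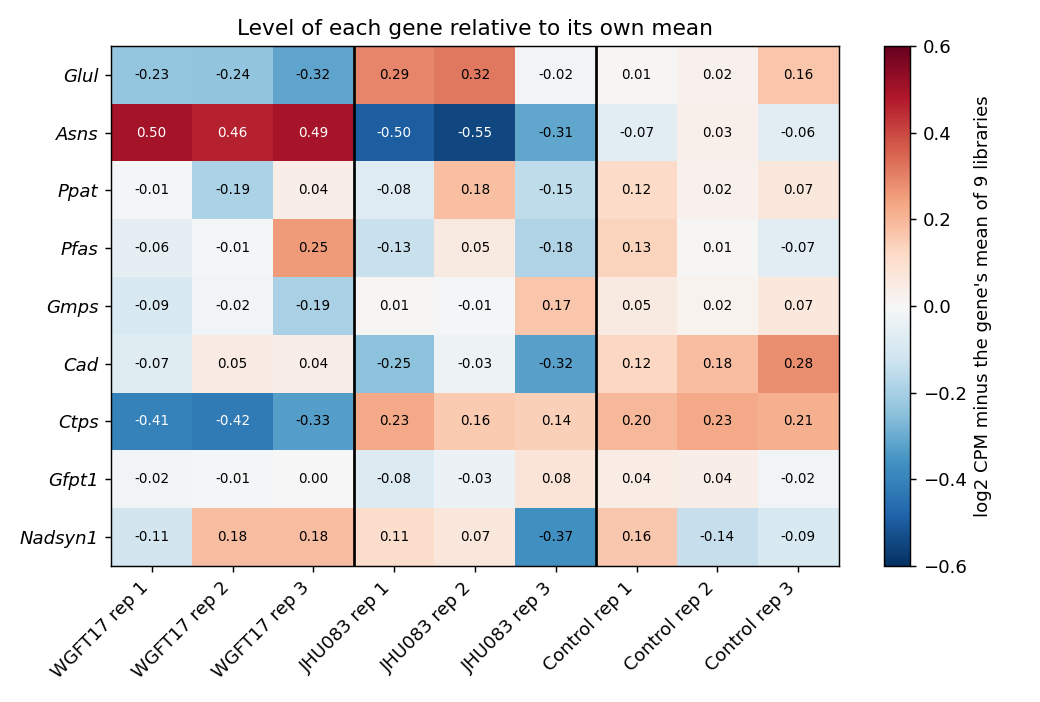
Log2 CPM of each gene in each library, minus that gene's mean over the 9 libraries (colour and printed value; columns are WGFT17, JHU083 and Control replicates). Asns runs opposite in the WGFT17 libraries (0.46 to 0.50) and the JHU083 libraries (-0.55 to -0.31), and Gfpt1 stays within 0.08 of its mean in all 9.

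Other genes of the same pathways were read from lists written from general knowledge, with earlier results of these data known. Beside the list counts below stand the shares of all tested genes. In WGFT17 against Control 28.0% of all rose and 30.0% fell, and in JHU083 against Control 11.5% and 12.5%. In WGFT17 against JHU083 20.4% were higher and 24.4% lower. The lists were not tested against these shares. Of the 10 other purine synthesis enzymes, 2 rose and 3 fell in WGFT17 against Control, 0 rose and 2 fell in JHU083 against Control, and 4 were higher and 3 lower in WGFT17 than in JHU083. In WGFT17, Impdh2, which makes the XMP that Gmps uses, changed by -0.44 in log2 (adjusted p = 0.000135), and Adss, a step towards AMP, rose by 0.22 (adjusted p = 0.00574). In JHU083 their values were -0.19 (adjusted p = 0.0534) and -0.08 (adjusted p = 0.339). The median log2 change of the list was -0.04 in WGFT17 and -0.14 in JHU083 against Control, beside 0.00 over all tested genes in each. With length and GC trends removed, 5 of the list rose and 0 fell in WGFT17, and Impdh2 did not pass (-0.13, adjusted p = 0.112), so no direction is given for the list.

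Of the 6 other pyrimidine enzymes, 1 rose and 3 fell in WGFT17 and 0 rose and 1 fell in JHU083 against Control. Against JHU083, 1 was higher and 2 were lower in WGFT17. Umps, the enzyme that completes UMP, fell by 0.37 in WGFT17 (adjusted p = 0.00135) and had -0.05 in JHU083 (adjusted p = 0.626). Uck2, a uridine kinase of nucleotide salvage, fell in both, by 0.41 in WGFT17 (adjusted p = 0.000209) and by 0.53 in JHU083 (adjusted p = 0.000774). Uck1 fell by 0.33 in WGFT17 (adjusted p = 0.00446), a call that ended with trends removed (-0.03, adjusted p = 0.697), and had 0.15 in JHU083 (adjusted p = 0.181).

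Nucleotide synthesis serves dividing cells, so cell cycle genes were set beside these enzymes. By edgeR, all 15 cell cycle genes fell in WGFT17 against Control (14 in limma on FPKM and with trends removed), with a median log2 change of -1.90, and all 15 were lower in WGFT17 than in JHU083 (median -1.84). In JHU083 against Control 3 rose, 0 fell and 12 did not pass (median 0.07). In that comparison 6 rose in limma on log2(FPKM + 1), and 4 with library totals alone and with trends removed. Rrm2, a subunit of ribonucleotide reductase that makes DNA precursors, had 3.79 ± 0.46 FPKM in WGFT17, 25.8 ± 1.14 in JHU083 and 20.1 ± 0.10 in Control (SD, n = 3 each), a log2 change of -2.52 in WGFT17 against Control (adjusted p = 1.02e-09). Rrm1, its partner, fell by 1.98 in WGFT17 (adjusted p = 3.12e-10), and Top2a by 2.83 (adjusted p = 9.62e-10). Beside these, Ppat, Pfas, Gmps, Cad and Ctps had log2 changes of -0.60 (Ctps) to 0.04 (Pfas) in WGFT17 against Control, and Ctps2 had 0.26. The part of the cell cycle in the Ctps change was not tested.

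Of the 8 genes of MYC and its targets, a set that drives growth, 3 rose and 2 fell in WGFT17 and 0 rose and 5 fell in JHU083 against Control. In WGFT17 against JHU083 5 were higher and 0 lower. The split in WGFT17 against Control moved to 6 higher and 1 lower with length and GC trends removed and to 4 and 1 in limma on log2(FPKM + 1). Ncl, nucleolin, rose by 0.52 in WGFT17 (adjusted p = 5.51e-06) and had 0.12 in JHU083 (adjusted p = 0.113). Odc1, ornithine decarboxylase, rose by 0.26 in WGFT17 (adjusted p = 0.00734) and fell by 0.37 in JHU083 (adjusted p = 0.00394). Npm1 rose by 0.49 in WGFT17 (adjusted p = 1.62e-05) and had 0.06 in JHU083 (adjusted p = 0.409).

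Of the 17 ATF4 response genes, a list that leaves out Asns, 13 rose and 0 fell in WGFT17 against Control (median 0.73), and 1 rose and 8 fell in JHU083 against Control (median -0.23). In WGFT17 against JHU083, 16 were higher and 0 lower (median 0.82). Atf4 itself had 137 ± 1.55 FPKM in WGFT17, 65.5 ± 0.76 in JHU083 and 72.3 ± 3.54 in Control (SD, n = 3 each), with log2 changes of 0.82 in WGFT17 (adjusted p = 5.66e-08) and -0.24 in JHU083 against Control (adjusted p = 0.00523); the JHU083 call ended with trends removed (-0.08, adjusted p = 0.331). Ddit3, which encodes the stress factor CHOP, rose by 2.89 in WGFT17 (adjusted p = 1.42e-10) and Trib3, a pseudokinase, by 3.10 (adjusted p = 2.44e-09). In JHU083 they had 0.17 (adjusted p = 0.0888) and -0.29 (adjusted p = 0.0877). Ddit3 passed as higher in JHU083 against Control in limma on log2(FPKM + 1) (0.25, adjusted p = 0.0224). With length and GC trends removed Ddit3 had 0.41 (adjusted p = 0.00295), while Trib3 passed in neither setting. In both settings the split of the list in JHU083 against Control was 3 higher and 7 lower. The Asns change of 0.52 in WGFT17 was thus below the median of this list.

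Of the genes whose promoter stretches are shown above, chosen after the motif search, Chac1, a glutathione-degrading enzyme, rose by 1.16 in WGFT17 (adjusted p = 7.82e-06) and fell by 0.60 in JHU083 against Control (adjusted p = 0.00581), the directions of Asns. Atf3, a stress-induced transcription factor, rose in both, by 0.88 in WGFT17 (adjusted p = 1.37e-06) and by 0.50 in JHU083 (adjusted p = 0.00142). Nupr1, a stress-induced nuclear protein, rose by 0.44 in WGFT17 (adjusted p = 0.00614) and had -0.03 in JHU083 (adjusted p = 0.864). Vldlr, a lipoprotein receptor, rose by 0.73 in WGFT17 (adjusted p = 3.2e-05) and had -0.06 in JHU083 (adjusted p = 0.647). Genes with the motif thus did not all share the pattern of Asns. Atf5, the gene nearest to Asns above and also in the list, rose by 0.50 in WGFT17 (adjusted p = 9.03e-06) and fell by 0.46 in JHU083 (adjusted p = 0.000573). Atf5 was picked for its likeness to Asns in these same libraries, so the shared directions follow from that choice.

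**Figure D4:**
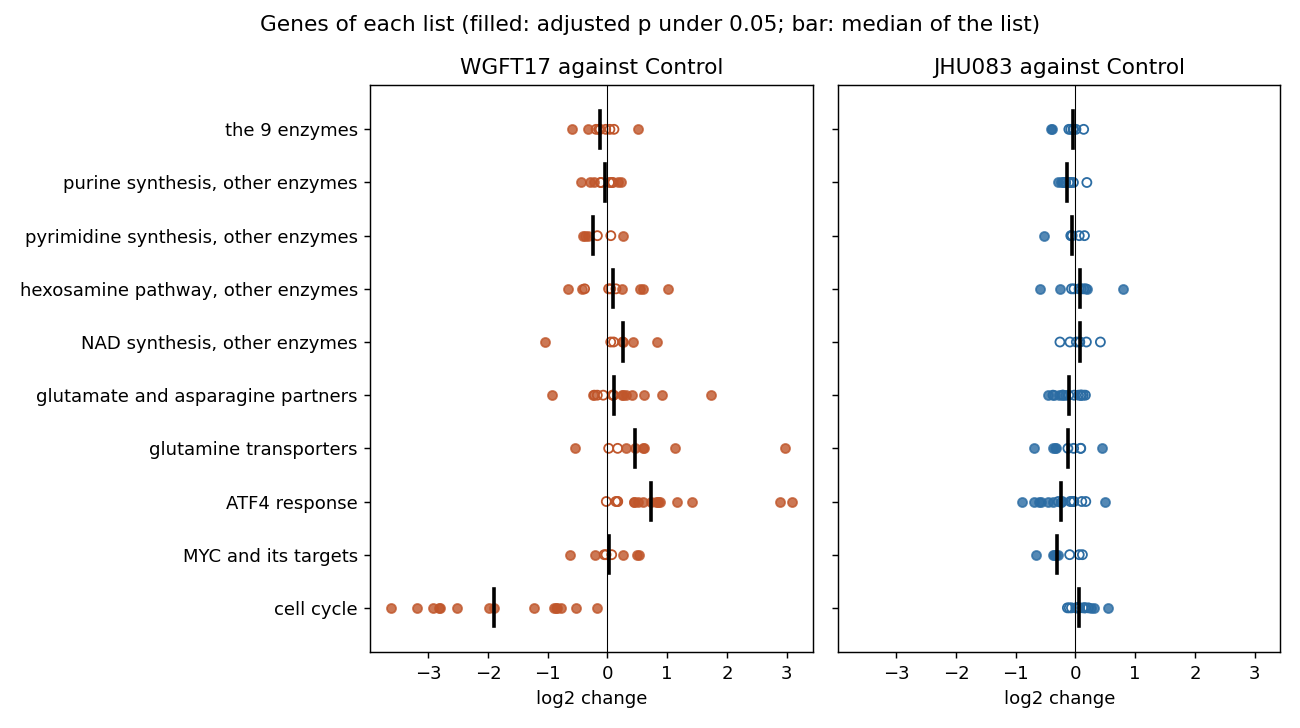
Log2 change (horizontal axes) of each tested gene in WGFT17 against Control and in JHU083 against Control, for the 9 enzymes and the 9 pathway lists; filled points passed an adjusted p of 0.05 and black bars are list medians. The 9 enzymes stay between -0.60 and 0.52, while in WGFT17 the cell cycle list has a median of -1.90 and the ATF4 response list one of 0.73.

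Of the 9 tested genes of glutamine transport and linked carriers, 6 rose and 1 fell in WGFT17 against Control, 1 rose and 4 fell in JHU083 against Control, and 6 were higher and 1 lower in WGFT17 than in JHU083. The largest rise in the list was that of Slc7a11, which exchanges glutamate for cystine. It had 9.37 ± 0.43 FPKM in WGFT17, 0.907 ± 0.15 in JHU083 and 1.10 ± 0.09 in Control (SD, n = 3 each; log2 change 2.98 in WGFT17, adjusted p = 2.6e-09). It fell by 0.38 in JHU083 against Control (log2, adjusted p = 0.03), a call that ended with library totals alone and in both limma settings (adjusted p = 0.0618 to 0.166). Slc3a2, the shared heavy chain of several amino acid exchangers, rose by 1.13 in WGFT17 (adjusted p = 9.67e-08), and Slc38a7, a lysosomal glutamine exporter, by 0.62 (adjusted p = 3.76e-06). In JHU083 they had 0.09 (adjusted p = 0.368) and -0.03 (adjusted p = 0.74).

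Of 15 tested genes that use or supply glutamate or act beside Asns, 7 rose and 2 fell in WGFT17 against Control, 0 rose and 4 fell in JHU083 against Control, and 9 were higher and 2 lower in WGFT17 than in JHU083. In limma on log2(FPKM + 1) the split in JHU083 against Control was even, 3 higher and 3 lower. Gclm and Gclc, the subunits of the enzyme that joins glutamate to cysteine in glutathione synthesis, rose by 1.74 (adjusted p = 1.85e-09) and 0.92 (adjusted p = 1.91e-06) in WGFT17. Oat, ornithine aminotransferase, fell by 0.93 (adjusted p = 7.42e-08). These 3 had 0.09, 0.05 and -0.02 in JHU083 against Control (adjusted p = 0.304, 0.657 and 0.816).

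Among 10 tested hexosamine genes besides Gfpt1, 4 rose and 2 fell in WGFT17, and 2 rose and 2 fell in JHU083 against Control. Between the compounds, 2 were higher and 2 lower in WGFT17 than in JHU083. Ogt, which attaches the pathway's product to proteins, rose in both, to 25.8 ± 3.56 FPKM in WGFT17 and 21.9 ± 1.84 in JHU083, against 11.8 ± 1.23 in Control (adjusted p = 8.55e-06 in WGFT17 and 0.00101 in JHU083). Oga, which removes it, rose by 0.59 in WGFT17 (adjusted p = 3.68e-06) and by 0.20 in JHU083 (adjusted p = 0.0215), a call that ended with trends removed (0.13, adjusted p = 0.0568). Pgm3, a middle step of the pathway, fell by 0.67 in WGFT17 (adjusted p = 5.24e-05) and by 0.26 in JHU083 (adjusted p = 0.0471). The Pgm3 call in JHU083 ended with library totals alone, in both limma settings and with trends removed (adjusted p = 0.0627 to 0.129). The list's split in JHU083 against Control was 2 higher and 0 lower with library totals alone and 4 and 0 in limma.

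Beside Nadsyn1, 3 of 7 tested NAD genes rose and 1 fell in WGFT17 against Control, 0 rose and 0 fell in JHU083 against Control by edgeR (2 rose at an unadjusted p under 0.05, and 1 by DESeq2), and 3 were higher and 1 lower in WGFT17 than in JHU083. Nampt, the enzyme of NAD salvage, rose to 34.3 ± 0.73 FPKM in WGFT17, against 17.9 ± 1.10 in Control (log2 change 0.83, adjusted p = 1.35e-06), and JHU083 had 21.7 ± 1.85 (0.18, adjusted p = 0.0709). Naprt, which makes the acid precursor that feeds the Nadsyn1 step, fell by 1.04 in WGFT17 (adjusted p = 8.75e-05). Nmnat3, an adenylyltransferase of the same pathway, rose by 0.43 in WGFT17 (adjusted p = 0.00724). In JHU083 these 2 had -0.26 (adjusted p = 0.202) and 0.07 (adjusted p = 0.684).

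The other counts of 0 above, all by edgeR's quasi-likelihood test, were read at an unadjusted p under 0.05 and by DESeq2. In JHU083 against Control, 1 purine gene was higher at an unadjusted p and 0 by DESeq2, and likewise 1 and 0 genes of the MYC list. For pyrimidine enzymes and glutamate partners 0 were higher by both, but limma on log2(FPKM + 1) called 1 pyrimidine enzyme and 3 glutamate partners higher. It also called 1 purine gene, 1 gene of the MYC list and 2 NAD genes higher. For cell cycle genes 0 were lower by both and in limma. In WGFT17 against Control and against JHU083, 0 ATF4 response genes were lower and 0 cell cycle genes higher by both, and against JHU083 0 genes of the MYC list were lower by both.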

How the data were processed

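RNA of 9 libraries was measured. Per the labels' protocols, poly(A) RNA was made into dUTP-stranded libraries and sequenced from both ends over 150 bases. StringTie 2.1.6, HISAT2 2.2.1, cutadapt 1.9, edgeR and DESeq2 are listed, with no roles, in the submitters' processing notes, along with the build mm9. The deposited table holds, per the file headers, a count and an FPKM per gene and library, both made by the authors. The deposited counts are whole numbers with an excess at 4 and 8 (8030 values of 4, 4287 of 3 and 2712 of 5), so they were treated as estimated counts and not as read tallies; how they were made is not given in the sources used here. WGFT17 columns bear another code in the table and were matched through the sample descriptions. Gene positions matched GENCODE M21 (GRCm38) exactly for all 9 genes here and for 87.1% of the 28926 identifiers found there.

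Genes averaging 1 FPKM or more (11798) were fitted, by their counts, with edgeR 4.0.16 (R 4.3.3), TMM factors, 1 model of 3 groups and quasi-likelihood tests, with Benjamini-Hochberg adjustment over all tested genes. Intervals are 95% intervals of that fit; means and SDs are of FPKM. Alternatives used DESeq2 1.42.0 and limma 3.58.1, other scaling, filters, a replicate block, trend removal (loess, span 0.3) and leaving out each library. The 9 genes and the 9 pathway lists (102 of 104 entries in the table) were chosen with earlier results of these data known. The text names all 9 genes, up to 3 genes per list (smallest adjusted p in any comparison), Paics as the head-to-head neighbour of Ppat, and up to 2 genes most similar to each called gene; others are marked as chosen after their values or motifs were seen. Glutaminase genes are not reported here.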

Additional observations from a re-analysis of the deposited data

How the results depend on the processing

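Asns kept its direction and calls in all 3 comparisons under every alternative tested, as did Ctps in both WGFT17 comparisons, Glul in WGFT17 against JHU083 and Cad in JHU083 against Control; the Glul call in WGFT17 against Control ended in 3 of 20 alternatives. Leaving out 1 library gave 3 to 5, 2 to 3 and 3 to 4 of the 9 genes called in WGFT17 against Control, JHU083 against Control and WGFT17 against JHU083; the 5 came without JHU083 replicate 3. Over all genes it gave 6007 to 7598, 1534 to 3731 and 4471 to 5713 calls; for JHU083 against Control the lowest were 1534 without Control replicate 2 and 1568 without Control replicate 3. Fitting only the 2 groups called 5 of the 9 in WGFT17 against Control, where the main fit called 58.0% of all tested genes. The share of all genes called when only the 2 groups were fitted is not given here. With length and GC trends removed, 4 of the 9 were called in JHU083 against Control (21.5% of all tested genes) and 6 in WGFT17 against JHU083 (59.4% of all), and Gmps reversed to -0.27 in JHU083 against Control; this setting also moved the median of all tested genes to 0.16 in WGFT17 against Control and 0.14 in WGFT17 against JHU083, and the cause of the moved calls was not tested. A minimum of 5 FPKM, with fewer genes tested, called 4151 genes in WGFT17 against Control and 3305 in WGFT17 against JHU083. The share called at that minimum is not given here. The split of calls moved with the scaling: in WGFT17 against Control 3300 were higher and 3537 lower, against 4490 and 2879 in limma on log2(FPKM + 1) and 5319 and 2646 with trends removed. In JHU083 against Control the split was 1351 and 1480, against 2524 and 1003 in limma and 1738 and 1222 with library totals. In WGFT17 against JHU083 it was 2403 and 2874, against 4711 and 2296 with trends removed.

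A term grouping JHU083 replicate 3 with the Control libraries, for their transcripts of other tissues, rests on that replicate in the comparisons with Control. It counted JHU083 replicate 1 as free of them, although that library held 183 CPM of heart transcripts. As sizes, it gave log2 changes of 0.73, -0.65 and -0.65 for Asns, Ctps and Glul in WGFT17 and -0.28 and -0.52 for Asns and Cad in JHU083. Same-numbered replicates correlated at -0.03 to 0.16 in their deviations from group means, so the numbers were not taken as pairs, and not every library correlated best with its own number. The replicate block left 3, 2 and 3 of the 9 called and 6530, 2330 and 4907 genes in all. Depth limits Nadsyn1 most, with 304 to 522 counts per library, where the spacing of low values points to about 4 counts per read pair.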
